A study of Rattus norvegicus with 39 samples.

Results

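Mapk9, Mapk10 and Gsk3b were followed through 39 sequencing libraries of polyribosome-bound mRNA from the rat nucleus accumbens (NAc). Mapk9 encodes c-Jun N-terminal kinase JNK2, Mapk10 encodes JNK3, and Gsk3b encodes glycogen synthase kinase GSK3β. They are 3 of the 23978 genes in the count table and were taken by identifier, ENSRNOG00000002823 for Mapk9, ENSRNOG00000002079 for Mapk10 and ENSRNOG00000002833 for Gsk3b. All 3 passed the filter on low counts in every comparison. The genes were chosen by earlier results of these data, the fitted difference between D2 and D1 libraries of saline-treated rats, which was called for Mapk10 in proestrus, for Mapk9 in diestrus and for Gsk3b in neither stage. The saline cell type values are therefore given as a description without a test. The other comparisons use ketamine-treated rats, or set treatments and cycle stages against each other within a cell type.

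JNKs are mitogen-activated protein (MAP) kinases that are switched on by cell stress and cytokines through the kinases MKK4 and MKK7, and they phosphorylate transcription factors such as c-Jun and ATF2 as well as cytoskeletal proteins. JNK2 is widely expressed, whereas JNK3 is found mainly in neurons. GSK3β is a serine/threonine kinase that is active in resting cells and is inhibited when Akt phosphorylates it or when Wnt signals arrive, and its substrates include β-catenin, tau and glycogen synthase. In medium spiny neurons (MSNs), the projection neurons of the NAc, GSK3β acts downstream of dopamine D2 receptors through Akt and β-arrestin. All of these steps are steps of protein activity, and the libraries measure mRNA on ribosomes.

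The rats were adult heterozygous Long-Evans females of 2 transgenic lines, D1-Cre (Drd1a-iCre) and D2-Cre (Drd2-iCre), in which the promoter of a dopamine receptor gene drives Cre recombinase. Every rat, saline controls included, had received AAV9-DIO-Rpl22-3xHA-Ires-EYFP in the NAc, so that only infected cells with Cre carried the tagged ribosomal protein that was immunoprecipitated (IP), and every rat went through the same handling and was returned to the test chamber without drug before tissue was taken. Treatment was 6 intraperitoneal injections of saline or of 10 mg/kg racemic ketamine, given in 1 cycle stage, proestrus or diestrus, and tissue was taken 4 days after the last one. Ketamine-treated rats entered the sequencing only if their locomotor activity had risen over the injections, so the ketamine groups hold responders. Of the 8 groups of Cre line, stage and treatment, 7 hold 5 libraries and the ketamine-treated proestrus D2-Cre group holds 4, since the authors left out 1 library, and each library comes from 1 rat.

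Total counts ran from 16118050 to 43224256 in 38 libraries and were 2396517 in the remaining library, number 39, a saline-treated diestrus D2-Cre rat. At that depth Mapk9 had 469 reads, Mapk10 had 448 and Gsk3b had 108, for which counting alone gives an SD of 4.62%, 4.72% and 9.62% of the value. Adora2a, the adenosine receptor that marks D2-MSNs, stood at 178 ± 23.3 CPM (reads scaled to a common library total; SD, n = 20) in D1 libraries and at 879 ± 144 CPM (SD, n = 19) in D2 libraries. No D1 library came above 221 CPM, and the lowest D2 library, number 32 of the ketamine-treated diestrus group, stood at 452 CPM, so all libraries were on the side of their label. Of the markers of D2-MSNs that had been listed, Adora2a is the 1 of 6 that could be paired with an identifier. Markers of D1-MSNs could not be paired and are not analysed here. Markers of astrocytes (Gfap, Gja1, Sox9), oligodendrocytes (Mog), microglia (Aif1, Tmem119), endothelium (Flt1) and interneurons (Sst, Nos1) were read in all groups, and none was at 0 throughout. Their values stand beside the cell type results below. In IP of tissue, fewer cells of a type and less RNA per cell cannot be told apart, and neither can the Cre line and the cell type it labels.

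Mapk9 was a gene of high and even level. It ranged from 171 to 229 CPM over 39 libraries, a 1.34-fold span, and its mean level exceeded that of 92.4% of the 14129 genes that pass the filter over all libraries. In saline-treated proestrus D1 rats its level in the 5 libraries was 189.8, 191, 205, 217 and 229 CPM. Ketamine-treated proestrus D1 rats had 202, 203, 206, 206 and 225 CPM. In diestrus D1 rats the level was 202, 204, 204, 208 and 217 CPM with saline and 189, 196, 205, 214 and 217 CPM with ketamine. All 4 D1 groups thus lay around the same level. D2 libraries of proestrus rats had 177, 184, 191, 203 and 206 CPM with saline and 177, 197, 204 and 214 CPM with ketamine. Those of diestrus rats had 173, 177, 182, 184 and 195 CPM with saline and 171, 177, 178, 185 and 188 CPM with ketamine. The proestrus D2 libraries overlapped the D1 libraries of their stage, whereas the diestrus D2 libraries, with either treatment, all lay below the D1 libraries of their own stage and treatment.

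Mapk10 ranged from 152 to 208 CPM, a 1.37-fold span, with a mean level above 91.4% of genes. In D1 libraries of proestrus rats its level was 155, 159, 168, 171 and 196 CPM with saline and 153, 163, 168, 182 and 196 CPM with ketamine. D1 libraries of diestrus rats had 167, 174, 187, 194 and 203 CPM with saline and 152, 175, 178, 179 and 185 CPM with ketamine. The D1 groups overlapped one another. For D2 libraries the level in proestrus was 184, 191, 192, 202 and 204 CPM with saline and 166, 189, 195 and 208 CPM with ketamine. It was 171, 185, 187, 192 and 197 CPM in diestrus with saline and 168, 175, 177, 184 and 192 CPM with ketamine. The D2 libraries thus sat toward the upper end of the range of D1 libraries, and each D2 group overlapped the D1 group of its stage and treatment.

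Gsk3b varied more between libraries than the JNK genes. It ranged from 23.1 to 51.1 CPM, a 2.21-fold span, with a mean level above 62.4% of genes. CPM does not account for transcript length, so the levels of the 3 genes were not compared with one another. Among D1 libraries, proestrus rats had 23.1, 34.8, 38.4, 46.6 and 50.04 CPM with saline and 31.5, 35.7, 39.1, 42.6 and 46.7 CPM with ketamine. Diestrus D1 rats had 28.9, 35.7, 37.8, 38.9 and 42.9 CPM with saline and 28.5, 31.9, 33.3, 40.4 and 42.5 CPM with ketamine. The saline-treated proestrus group held both the lowest and the highest D1 library. In D2 libraries of proestrus rats the values were 37.4, 38.3, 43.1, 43.5 and 51.1 CPM with saline and 25.4, 43.6, 45.0 and 45.1 CPM with ketamine. Diestrus D2 rats had 28.7, 32.9, 35.7, 41.9 and 44.98 CPM with saline and 24.9, 29.8, 33.2, 34.3 and 42.5 CPM with ketamine. Every Gsk3b group overlapped every other group.

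**Figure D1:**
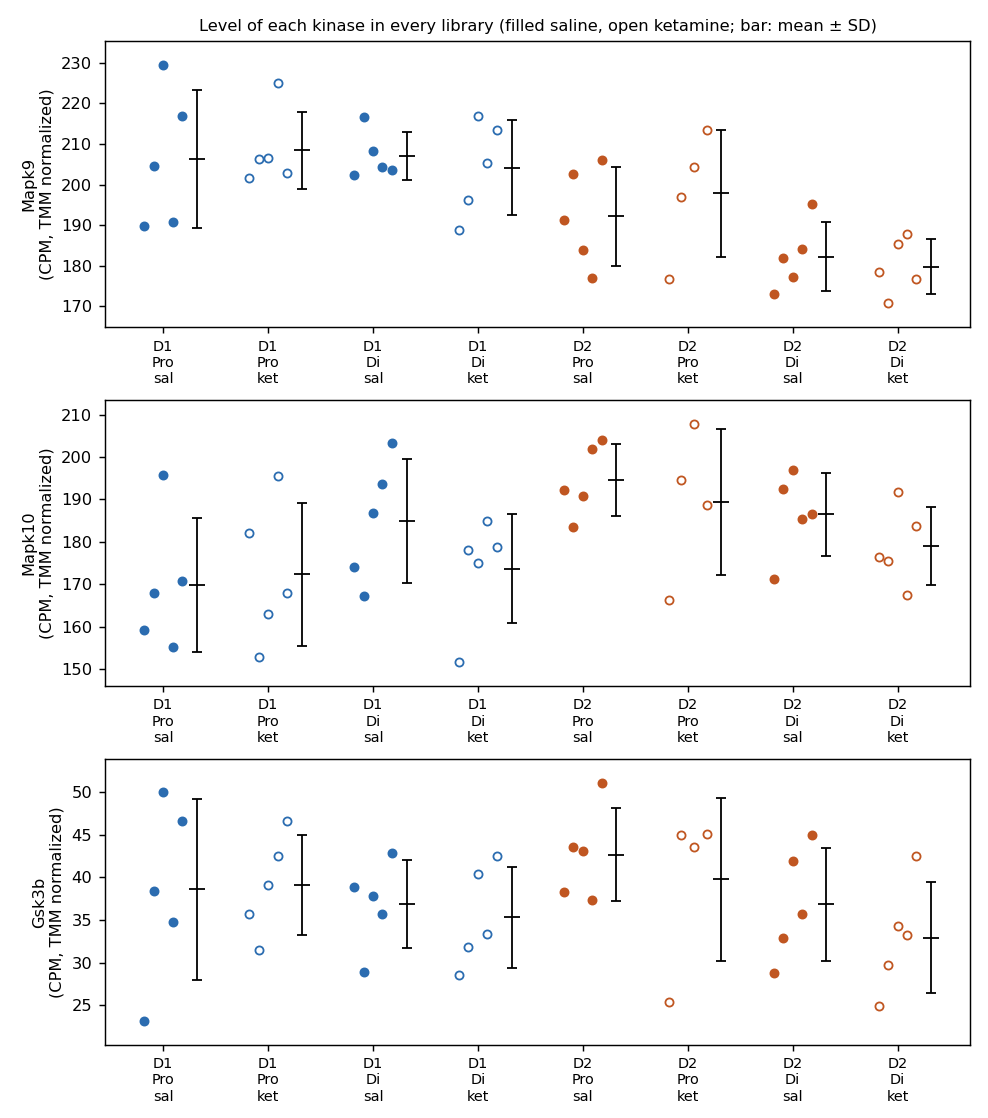
Level of Mapk9, Mapk10 and Gsk3b in every library, in CPM normalized over all 39 libraries, with a panel for each gene. Points are libraries, bars are group means with the SD, the 8 groups stand along the x axis, and the y axes do not start at 0. The diestrus D2 groups of Mapk9, between 171 and 195 CPM, are the lowest of that panel, while the Gsk3b groups overlap throughout.

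Group means followed cell type for Mapk9. From high to low they were 208 ± 9.52 CPM (SD, n = 5) in ketamine-treated proestrus D1 rats, 207 ± 5.80 in saline-treated diestrus D1 rats, 206 ± 17.0 in saline-treated proestrus D1 rats and 204 ± 11.7 in ketamine-treated diestrus D1 rats. The D2 groups came next, with 198 ± 15.7 CPM (SD, n = 4) in proestrus with ketamine, 192 ± 12.3 (n = 5) in proestrus with saline, 182 ± 8.45 in diestrus with saline and 179.8 ± 6.86 in diestrus with ketamine. No step between neighbours in this order exceeded the larger SD of the pair, so the order does not rank neighbouring groups. The step between the D1 and D2 groups was 6.27 CPM. The largest step, 9.93 CPM, lay between the proestrus and diestrus D2 groups with saline.

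The order of Mapk10 ran the other way, with the D2 groups at the top. Its highest mean was 195 ± 8.43 CPM (SD, n = 5) in saline-treated proestrus D2 rats, followed by 189 ± 17.3 (n = 4) with ketamine in proestrus and by 187 ± 9.76 (n = 5) with saline in diestrus. Saline-treated diestrus D1 rats had 185 ± 14.5 CPM and ketamine-treated diestrus D2 rats 179 ± 9.18, so this pair broke the separation by cell type. The lowest means were 174 ± 12.8 CPM in ketamine-treated diestrus D1 rats, 172 ± 16.7 in ketamine-treated proestrus D1 rats and 169.8 ± 15.9 in saline-treated proestrus D1 rats. Gsk3b ran from 42.7 ± 5.47 CPM (SD, n = 5) in saline-treated proestrus D2 rats to 32.9 ± 6.47 in ketamine-treated diestrus D2 rats, with the other 6 groups between 35.3 and 39.8 CPM. For neither gene did neighbours differ by more than the larger SD of the pair.

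The difference between D2 and D1 libraries of saline-treated rats is what chose the genes. In proestrus, the fitted log2 fold change (positive where D2 is higher) was 0.23 (SE 0.057) for Mapk10, which is a level 17.3% higher in D2 libraries. It was -0.016 (SE 0.050) for Mapk9 and 0.32 (SE 0.19) for Gsk3b, the latter with a 95% interval of the percent difference from -7.43% to 67.9%. Of 13283 genes tested in that comparison by edgeR's quasi-likelihood test at a Benjamini-Hochberg adjusted p under 0.1, 5.41% were called. In diestrus the fitted value was -0.18 (SE 0.047) for Mapk9, a level 11.4% lower in D2 libraries, with 0.063 (SE 0.070) for Mapk10 and 0.056 (SE 0.13) for Gsk3b, where 4.11% of 13292 genes were called. Over both stages, where 28.8% of 13689 genes were called, Mapk9 stood at -0.15 (SE 0.038), Mapk10 at 0.098 (SE 0.043) and Gsk3b at 0.053 (SE 0.11). These values depended on the model and on single libraries. In proestrus Mapk9 was -0.11 both without surrogate variables and with blocks of library numbers, and Gsk3b was 0.14 without surrogate variables, 0.053 in a single model of all 39 libraries and 0.19 without library 1. With 1 library left out, Gsk3b ranged from -0.068 to 0.12 in diestrus and from 0.0045 to 0.15 over both stages, and Mapk10 from 0.022 to 0.092 and from 0.062 to 0.14. The Mapk9 value over both stages was -0.087 without library 39, the shallow one, and -0.075 without library 17, the D1 library with the most Mapk9.

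Ketamine-treated rats give the same contrast in libraries that did not enter the choice of genes. Mapk9, the JNK2 gene, was lower in D2 than in D1 libraries of ketamine-treated diestrus rats, and all 5 D2 libraries lay below all 5 D1 libraries. Mean levels were 179.8 ± 6.86 and 204 ± 11.7 CPM (SD, n = 5 each). The fitted log2 fold change was -0.18 (SE 0.047), a difference of -11.7% with a 95% interval from -17.6% to -5.42%, and the edgeR adjusted p was 0.0252. In that comparison 12.8% of 13358 genes were called, and 6.6% were called with D1 higher. The 2-sided exact permutation test gave p = 0.00794, the smallest that 5 against 5 libraries allow, without adjustment over genes or comparisons. The share of all genes whose libraries separate in this way was not counted. The call held in each of 10 fits that left out 1 library, with adjusted p between 0.0170 and 0.0751, and the log2 fold change was -0.20 (adjusted p = 0.0182) without library 32, the D2 library of low Adora2a. It was lost, at the same size, without surrogate variables (-0.18, adjusted p = 0.103) and with blocks of library numbers in their place (-0.18, adjusted p = 0.106).

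In ketamine-treated proestrus rats the D2 and D1 libraries of Mapk9 overlapped. The fitted log2 fold change was -0.087 (SE 0.049), a difference of -5.84% with a 95% interval from -12.5% to 1.31%. With 1 library left out the log2 fold change ranged from -0.097 to -0.029. Mapk9 was not called by edgeR (adjusted p = 0.459), and the exact permutation p was 0.286. In this comparison 5.61% of 13339 genes were called. Over both stages with stage in the model, Mapk9 was lower in D2 libraries by 7.63% (log2 fold change -0.11, SE 0.035, 95% interval of the difference -12.2% to -2.81%), with an edgeR adjusted p of 0.0330, where 18% of 13850 genes were called and 9.83% were called with D1 higher. An exact permutation test with libraries exchanged within each stage gave p = 0.00375 over 31752 arrangements. This call held in all 19 fits without 1 library, with adjusted p from 0.00944 to 0.0908, and under each of the other settings tried. Mean levels over both stages were 188 ± 14.4 CPM (SD, n = 9) in D2 and 206 ± 10.3 CPM (SD, n = 10) in D1 libraries. The same means with saline were 187 ± 11.2 and 207 ± 12.0 CPM (SD, n = 10 each).

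Whether the cell type difference of ketamine-treated rats itself differed between proestrus and diestrus was tested with an interaction term. For Mapk9 this difference of differences was 0.068 on the log2 scale, for Mapk10 0.088 and for Gsk3b -0.040, each with an edgeR adjusted p of 0.997. A call in diestrus and none in proestrus therefore do not show that the stages differ. The test called 0 of 13850 genes, with 549 at an unadjusted p under 0.05 and 2 called by DESeq2.

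Mapk10, the gene of the neural JNK3, was not called between D2 and D1 libraries of ketamine-treated rats. Its log2 fold change was 0.13 (SE 0.083) in proestrus, a difference of 9.37% with a 95% interval from -3.81% to 24.4% (edgeR adjusted p = 0.551; exact permutation p = 0.198). This value turned on single libraries. Mapk10 was called in 5 of 9 fits that left out 1 library, those without number 6 (0.24, adjusted p = 0.0131), 22 (0.18, 0.0300), 26 (0.22, 0.0937), 34 (0.20, 0.0419) or 38 (0.23, 0.0136), and in the fit without a filter on low counts (0.22, adjusted p = 0.0138). In diestrus the log2 fold change was 0.048 (SE 0.051, edgeR adjusted p = 0.638; exact permutation p = 0.532). Over both stages it was 0.081 (SE 0.047, edgeR adjusted p = 0.292; exact permutation p = 0.115), from levels of 184 ± 13.6 CPM (SD, n = 9) in D2 and 173 ± 14.1 CPM (SD, n = 10) in D1 libraries.

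Gsk3b showed no difference between cell types beyond its spread in ketamine-treated rats, and its spread leaves room for one. The log2 fold change was 0.073 (SE 0.14) in proestrus, -0.089 (SE 0.090) in diestrus and 0.032 (SE 0.081) over both stages, with edgeR adjusted p of 0.888, 0.622 and 0.856 and exact permutation p of 1, 0.524 and 0.685. Means over both stages were 36.0 ± 8.28 CPM (SD, n = 9) in D2 and 37.2 ± 5.91 CPM (SD, n = 10) in D1 libraries. The coefficient of variation of Gsk3b within groups was 12.8% to 27.4%, against 2.80% to 8.25% for Mapk9 and 4.33% to 9.72% for Mapk10.

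**Figure D2:**
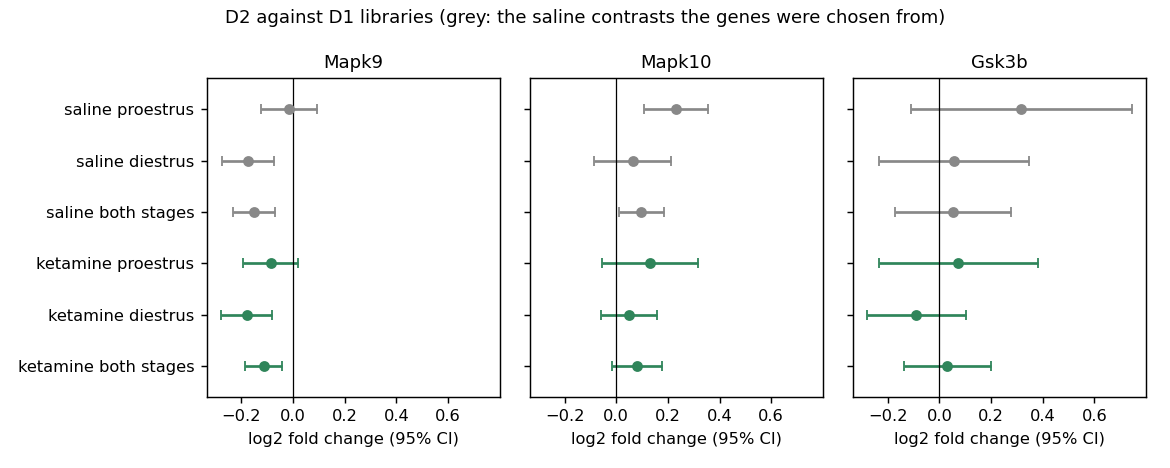
Fitted log2 fold change of D2 against D1 libraries for Mapk9, Mapk10 and Gsk3b, with 95% intervals, by treatment and stage. Values above 0 are higher in D2. The saline values chose the genes and carry no test, and in ketamine-treated rats the Mapk9 intervals lie below 0 in diestrus and over both stages, at -0.18 and -0.11.

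Markers of other cells moved with the same contrast. In ketamine-treated diestrus rats the summed level of the interneuron markers Sst and Nos1, 2 of 7 listed, ran from 88.2 to 183 CPM in D2 and from 246 to 703 CPM in D1 libraries, and in proestrus from 121 to 247 and from 339.8 to 580 CPM. The edgeR log2 fold change in diestrus was -1.58 for Sst (adjusted p = 0.0211) and -2.23 for Nos1 (adjusted p = 4.7e-04). Some glial and vascular markers were higher in D2 libraries in diestrus. The sum of the astrocyte markers Gfap, Gja1 and Sox9 (3 of 7 listed) ran from 48.4 to 84.5 CPM in D2 and from 35.8 to 46.1 CPM in D1 libraries. Flt1, the endothelial marker that could be paired (1 of 6), ran from 3.98 to 7.41 CPM in D2 and from 2.31 to 4.01 CPM in D1 libraries. The microglial markers Aif1 and Tmem119 (2 of 7) summed to 0.796 to 3.47 CPM in D2 and to 1.34 to 2.43 CPM in D1 libraries. Among these, Gja1 (0.67, adjusted p = 0.00107), Flt1 (1.03, 0.00152) and the oligodendrocyte marker Mog (0.43, 0.0793) were called higher in D2, and Gfap, Sox9, Aif1 and Tmem119 were not called. In ketamine-treated proestrus rats none of these 7 glial and vascular genes was called. Sst (-1.42, edgeR adjusted p = 1.9e-04) and Nos1 (-1.40, 0.0469) were called lower in D2 there. Over both stages with ketamine, Sst (-1.63, edgeR adjusted p = 3.7e-06) and Nos1 (-1.82, 2.0e-05) were lower in D2. Gja1 (0.39, 0.0202) and Flt1 (0.69, 0.0044) were higher, and Gfap, Sox9, Mog, Aif1 and Tmem119 were not called. With saline over both stages Sst and Nos1 were called lower, and Gja1, Sox9, Mog and Flt1 higher. The part of these cells in the Mapk9 difference was not tested.

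Since Mapk9 leaned to D1 and Mapk10 to D2 libraries, the log2 ratio of Mapk10 to Mapk9 counts was taken within each library (0.5 added to each count), which cancels library size. Transcript length sets its zero point, so only differences between libraries are read. With ketamine in proestrus, D1 libraries had ratios of -0.43, -0.34, -0.27, -0.20 and -0.15 and D2 libraries of -0.18, -0.09, -0.02 and 0.02. In diestrus, D1 libraries had -0.32, -0.31, -0.26, -0.15 and -0.14 and D2 libraries -0.17, -0.02, 0.04, 0.05 and 0.06. In each stage all but 1 of the D2 libraries lay above every D1 library. The mean ratio of D2 minus that of D1 libraries was 0.21 in proestrus (exact permutation p = 0.0317, 0.159 after adjustment over 10 comparisons of the ratio) and 0.23 in diestrus (exact permutation p = 0.0238, adjusted 0.159), and neither passed the correction. Of 10 fits without 1 diestrus library, 1 passed it, that without library 32 (0.27, exact permutation adjusted p = 0.0794, and up to 0.198 without another library), which is the D2 library of low Adora2a and also the D2 library of that group with the lowest ratio, so that the groups no longer overlapped. Taken over both stages, the mean difference was 0.22, with 7 of 9 D2 libraries above all 10 D1 libraries, and leaving out 1 library gave 0.20 to 0.24. The pooled value was added after the values of the single stages were seen and is given as a description, with no p.

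In saline-treated rats, where the genes were chosen, the ratio is a description. D1 libraries of proestrus rats had -0.34, -0.30, -0.28, -0.25 and -0.23, and D2 libraries had -0.14, -0.01, 0.01, 0.05 and 0.19. Diestrus D1 libraries had -0.37, -0.22, -0.16, -0.08 and -0.0034, and D2 libraries had -0.07, -0.02, 0.01, 0.08 and 0.15. The proestrus groups were separate, by 0.30 in the mean, and the diestrus groups overlapped, with means 0.20 apart. Between stages of saline-treated rats the ratio differed by -0.12 in D1 and -0.014 in D2 libraries, a description as well. In the other 6 comparisons of the ratio, of ketamine with saline and of the stages of ketamine-treated rats, none passed the threshold, with differences from -0.083 to 0.0024 and adjusted exact permutation p from 0.622 to 0.952.

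**Figure D3:**
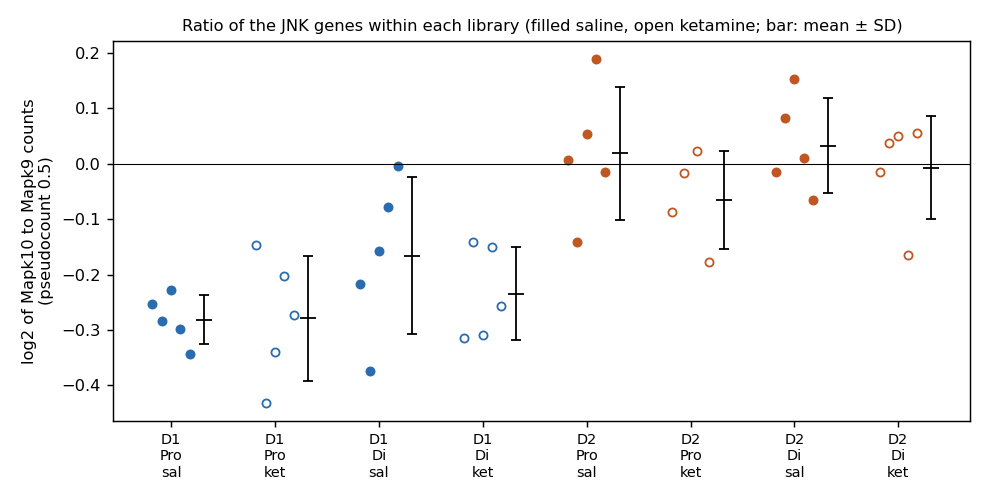
Log2 ratio of Mapk10 to Mapk9 counts within each library, by group. Points are libraries and bars are group means with the SD. The 4 D2 group means lie between -0.065 and 0.033 and the 4 D1 group means between -0.28 and -0.17.

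Repeated ketamine was set against saline separately for each cell type and stage. None of the 3 kinases was called. These comparisons use the same saline libraries as the cell type and stage comparisons, so they are not independent of them. Those saline libraries also chose the genes, so the p values of these comparisons are not free of that choice. In proestrus D1 libraries the log2 fold change (positive where ketamine is higher) was 0.032 for Mapk9, 0.044 for Mapk10 and 0.088 for Gsk3b, with edgeR adjusted p from 0.854 to 0.938, and 0.00759% of 13183 genes were called. In diestrus D1 libraries the values were -0.019, -0.099 and -0.056, where 0.0227% of 13214 genes were called. In D2 libraries they were -0.015, -0.045 and -0.14 in proestrus and -0.0037, -0.030 and -0.0025 in diestrus. The Gsk3b value of proestrus D2 libraries ranged from -0.33 to -0.018 with 1 library left out. The exact permutation p was 0.254 or more for each of the 12 values. In D2 libraries edgeR called 0 of 13414 genes in proestrus and 0 of 13455 in diestrus, with 457 and 355 at an unadjusted p under 0.05, and DESeq2 called 1 and 0. The intervals limit what may have been missed, but they take the surrogate variables as known and may be too narrow. For Gsk3b in proestrus D1 libraries the 95% interval of the log2 fold change was -0.011 to 0.19. Without library 1 its log2 fold change was -0.050 (SE 0.15). For Mapk9 in diestrus D2 libraries the 95% interval of the percent difference with ketamine was -7.75% to 7.85%, and for Gsk3b in the same libraries -20.4% to 25.2%.

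Cycle stage was compared within each cell type and treatment, in the same libraries. Within D1 libraries of saline-treated rats, Mapk10 had a log2 fold change of -0.17 (SE 0.046; positive where proestrus is higher). In saline-treated D2 rats the value of Gsk3b was 0.27. The saline values use the libraries whose cell type difference in each stage chose the genes, and are given as a description. Mapk9 had values of 0.087 with saline and 0.10 with ketamine in D2 libraries, and with ketamine 3 of 4 proestrus libraries lay above every diestrus library (exact permutation p = 0.0714). In ketamine-treated rats none of the 3 genes passed the adjusted threshold in either cell type. The remaining Mapk9 values were -0.057 in saline-treated and 0.028 in ketamine-treated D1 rats. Over all genes the stage comparisons called 0 of 13183 (D1, saline), 13220 (D1, ketamine), 13340 (D2, saline) and 13595 (D2, ketamine), with 522, 516, 545 and 469 genes at an unadjusted p under 0.05, and DESeq2 called 2, 2, 0 and 4.

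**Figure D4:**
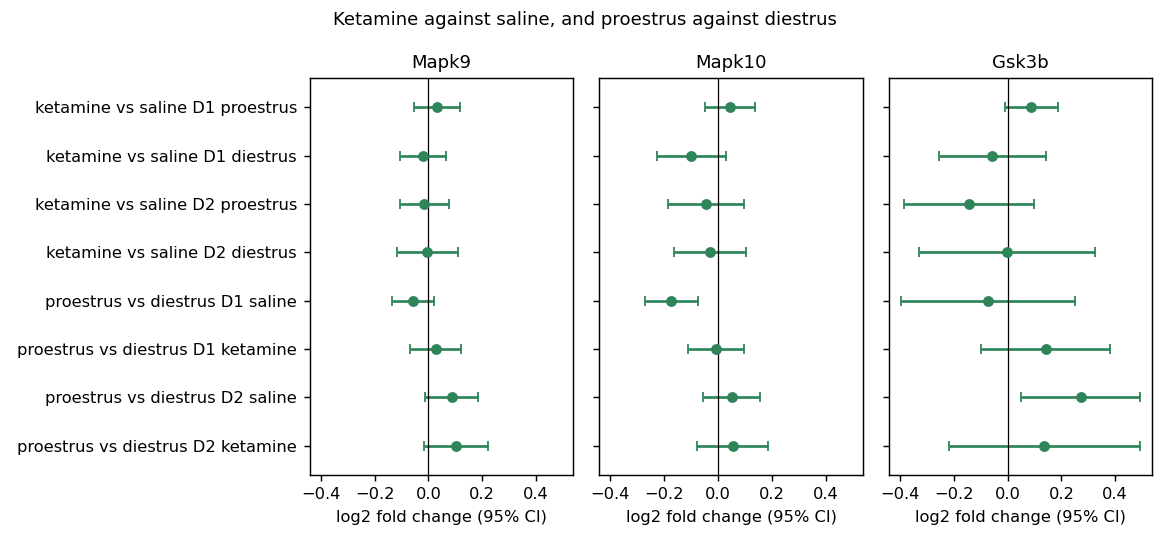
Fitted log2 fold changes of ketamine over saline for each cell type and stage, and of proestrus against diestrus within each cell type and treatment, for the 3 genes with 95% intervals. None of the treatment values and none of the stage values of ketamine-treated rats was called, the stage values of saline-treated rats are a description, and the Gsk3b intervals are the widest in each comparison.

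The rest of the JNK pathway could be read only in part, since only parts of the tables that pair identifiers with symbols were read here. Of 42 genes listed for the pathway, 8 were paired, and 6 of these are neither Mapk9 nor Mapk10. They are Map2k4 and Map2k7, which encode the JNK kinases MKK4 and MKK7, Taok3, a kinase further upstream, Spag9, the scaffold JIP4, Dusp10, a phosphatase that turns JNK and p38 off, and Atf2, a transcription factor that JNKs phosphorylate. In ketamine-treated rats over both stages, 1 of the 6 was called lower in D2, Atf2 at -0.068 (SE 0.027, edgeR adjusted p = 0.0995), and none was called higher, beside 9.83% of all genes called with D1 higher and 18% called in either direction. The median of the 6 was -0.0037, beside 0.00033 over all genes tested. The activating kinases went different ways, with Map2k4 at -0.046 (SE 0.041) and Map2k7 at 0.060 (SE 0.032), neither of them called. In saline-treated rats over both stages Atf2 was again the 1 gene called (-0.072, SE 0.028, edgeR adjusted p = 0.0680), with a list median of -0.066, beside 28.8% of all genes called, and that call was lost without surrogate variables. In all other comparisons 0 of the 6 genes were called.

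For the GSK3 pathway, 2 of 36 listed genes were paired, Gsk3b and Dvl3, a Dishevelled protein that carries Wnt signals. Dvl3 was called in no comparison and stood at 0.020 (SE 0.055) between D2 and D1 libraries of ketamine-treated rats over both stages. Mapk8 (JNK1) and Gsk3a (GSK3α), the nearest relatives of the 3 genes, were not paired and are not analysed here. Of the p38 kinases, Mapk13 (p38δ) was removed by the filter. Mapk14, the gene of p38α, was higher in D2 libraries of saline-treated rats over both stages (0.10, SE 0.037, edgeR adjusted p = 0.0531), where 28.8% of all genes were called. With ketamine it stood at 0.13 in proestrus (edgeR adjusted p = 0.139), 0.025 in diestrus (adjusted p = 0.852) and 0.058 over both stages (adjusted p = 0.385), and whether the treatments differ was not tested.

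How the 3 genes varied together was read from log2 CPM. Across all 39 libraries Pearson's r was 0.066 for Mapk9 with Mapk10, 0.50 for Mapk9 with Gsk3b and 0.55 for Mapk10 with Gsk3b, with Spearman's rho of 0.047, 0.48 and 0.52. Those libraries fall into 2 cell types between which Mapk9 and Mapk10 lean opposite ways, so r was also taken within each. Across 20 D1 libraries Mapk9 and Mapk10 had r = 0.53 (permutation p = 0.0159; rho = 0.41, p = 0.0713), and across 19 D2 libraries r = 0.46 (permutation p = 0.0479; rho = 0.44, p = 0.0606). Mapk9 and Gsk3b had r = 0.64 in D1 (permutation p = 0.00223; rho = 0.56, p = 0.0116) and 0.70 in D2 libraries (permutation p = 9.7e-04; rho = 0.75, p = 2.6e-04). For Mapk10 and Gsk3b r was 0.53 in D1 (permutation p = 0.0170; rho = 0.52, p = 0.0191) and 0.72 in D2 libraries (permutation p = 6.9e-04; rho = 0.59, p = 0.00883). All 6 relations within a cell type were thus positive. Adjusted over the 6, the p of r ranged from 0.00291 to 0.0479 and that of rho from 0.00156 to 0.0713. Without the 2 libraries farthest from the median of the first gene, r was 0.35, 0.54 and 0.43 in D1 and 0.42, 0.63 and 0.65 in D2 libraries, in the same order of pairs. These tests exchange libraries between stages and treatments. With each library taken as its deviation from its group mean, r was 0.57, 0.63 and 0.61 in D1 and 0.34, 0.67 and 0.63 in D2 libraries, given without a test. By r over all 39 libraries, Gsk3b ranked 1292 among 14128 other genes for Mapk9 and 284 for Mapk10. Mapk10 ranked 6004 for Mapk9, so many genes followed each kinase more closely. Ranks within a cell type were not taken, and the p values do not show relations particular to these genes. Libraries share their normalization and their make-up of cells, which these values do not separate.

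**Figure D5:**
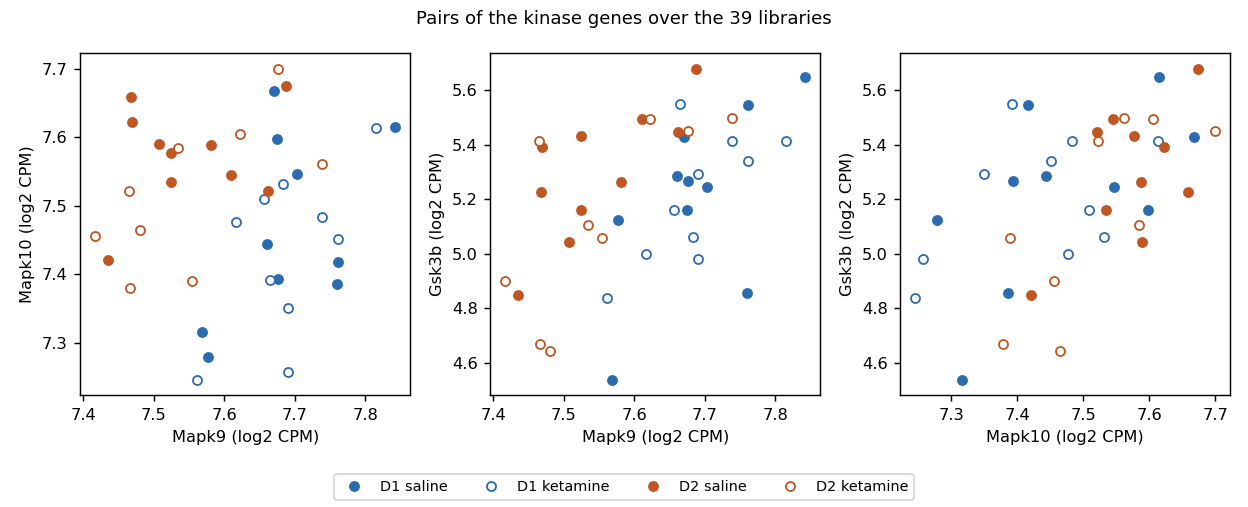
Log2 CPM of each pair of genes, with a point for each of 20 D1 and 19 D2 libraries. Within each cell type the 3 pairs rise together, with r from 0.46 to 0.72, while for Mapk9 and Mapk10 the clouds of the cell types are displaced from each other and the r over all libraries is 0.066.

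The genes most like each of the 3 were ranked by Pearson's r over 39 libraries among 14128 other genes, as a description. For Gsk3b the 5 highest had r from 0.95 to 0.97, for Mapk9 from 0.86 to 0.88 and for Mapk10 from 0.72 to 0.76. Of these 15 genes only Mark1, a microtubule affinity-regulating kinase, could be named, with r = 0.73 to Mapk10. The best-ranked genes that do have a symbol, named after their values were seen, were Cplx2 (complexin 2, of synaptic vesicle release, r = 0.95) and Cacna1e (a voltage-gated calcium channel, 0.93) for Gsk3b, Atp6v1a (a subunit of the vacuolar proton pump, 0.85), Ncam2 (a neural cell adhesion molecule, 0.84) and Pafah1b1 (LIS1, a regulator of dynein, 0.84) for Mapk9, and Clcn4 (a chloride/proton exchanger, 0.71) for Mapk10. Nos1, the interneuron marker, had r = 0.82 to Mapk9 over all libraries, 0.54 within D1 and 0.85 within D2 libraries. All of these values rest on the same 39 libraries and mix differences between groups with differences between rats.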

How the data were processed

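The authors trimmed reads with fastp 0.23.4, checked them with FastQC 0.12.1 and quantified transcripts with Salmon 1.10.2 (build mRatBN7.2, per the submitters' processing notes, which also name DESeq2 1.42.1). The deposited values are expected counts per gene, not normalized, for 23978 genes in 39 libraries, and were used as whole numbers. Salmon divides reads among similar transcripts by estimation, so part of a read shared by JNK genes can be assigned to either. Symbols came from the authors' supplementary tables, of which only parts were read here, and cover 1966 genes (8.20%).

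In R 4.3.3, low genes were removed by edgeR 4.0.16 (filterByExpr by group, minimum count 10), libraries were scaled by TMM, and robust quasi-likelihood fits with 2 surrogate variables (sva 3.50.0, limma 3.58.1) were made over the libraries of each comparison. Benjamini-Hochberg adjustment ran over all genes tested, and called means an adjusted p under 0.1, the threshold of the paper. Percent differences are back-transformed log2 fold changes with 95% intervals. Levels are CPM normalized over 39 libraries. Permutation tests are 2-sided, exact for log2 CPM or ratios between groups and with 100000 resamples for correlations. The permutation p of log2 CPM is given without adjustment over genes or comparisons. Alternatives were no surrogate variables, DESeq2 1.42.0, its size factors in edgeR, no filter, blocks of 8 consecutive library numbers, 1 model of all libraries, a threshold of 0.05, a ratio pseudocount of 1 in place of 0.5, and fits without each of the libraries. The fits were tested on simulated data. Among 76 pairs of libraries of the same group, none was identical and every pair differed by more than sampling noise (chi-square per degree of freedom of at least 2.76).

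The genes and lists were chosen with earlier results of these data known. Named are the 3 genes, the called genes of the pathway lists (up to 8 a list; some listed genes are not reported here), and the 5 genes whose log2 CPM (prior count 2) over all libraries is most like each. Columns of the authors' own comparisons were not used.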

Additional observations from a re-analysis of the deposited data

Results flagged for a closer look

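Each group of 4 or 5 libraries was searched for a library far from the rest, for the 3 genes and the log2 ratio of Mapk10 to Mapk9, which made 32 sets. Library 26 of the ketamine-treated proestrus D1 group had 225 CPM of Mapk9, above the other 4 libraries at 202 to 206 CPM. Library 6 of the ketamine-treated proestrus D2 group had 25.4 CPM of Gsk3b, below the other 3 libraries at 43.6 to 45.1 CPM. Chance gives about 1 such library in 20 sets, so 2 in 32 is near that number. Both libraries are among those whose omission brought Mapk10 past the threshold between D2 and D1 libraries of ketamine-treated proestrus rats.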

How the results depend on the processing

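No paired analysis was possible because no library number is shared between groups and no label names matched sets. The blocks of 8 consecutive numbers, which hold 1 library of each group apart from the library left out by the authors, were fitted in its place. Apart from omitted libraries, 232 fitted values of the 3 genes in the tested comparisons kept their direction and side of the threshold, 17 changed sign, 2 lost and 1 gained the call. Mapk9 in ketamine-treated diestrus rats was lost without surrogate variables (-0.18) and with blocks of library numbers (-0.18), and Mapk10 in ketamine-treated proestrus rats was gained without a filter (0.22) and in 5 of 9 fits without 1 library, which ranged from 0.094 to 0.24 over all 9 and from 0.18 to 0.24 in those 5. The cause was not tested.

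Of the 54 values that describe the saline cell type difference, 5 changed sign, all in Gsk3b or Mapk10. In diestrus Gsk3b was -0.035 without surrogate variables, -0.012 with blocks and -0.17 in the single model of all libraries, and Mapk10 was -0.030 in the single model, where Gsk3b over both stages was -0.058. With 1 library left out 4 changed sign, Gsk3b in diestrus without library 7, 23 or 39 (-0.063, -0.068 and -0.063) and Mapk9 in proestrus without library 33 (0.00054).

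In the tested comparisons the values that changed sign were all uncalled. Gsk3b between D2 and D1 with ketamine was -0.067 in proestrus with blocks, and over both stages -0.045 without surrogate variables, -0.0015 without a filter, -0.077 with blocks and -0.040 in the single model of all libraries. Its interaction of cell type with stage was 0.13, 0.069, 0.069 and 0.12 under these settings in turn. Its stage difference in saline-treated D1 rats was 0.065 without surrogate variables, 0.034 with blocks and 0.085 in the single model, and its ketamine difference in diestrus D2 rats was 0.017 in the single model. Mapk9 between ketamine and saline in proestrus D2 rats was 0.043 without surrogate variables, 0.062 with blocks and 0.011 in the single model, and Mapk10 between stages in ketamine-treated D1 rats was 0.00055 without a filter.

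With 1 library left out, Gsk3b ranged from -0.021 to 0.081 between cell types with ketamine over both stages and from -0.15 to 0.25 for the interaction. Between ketamine and saline it ranged from -0.050 to 0.17 in proestrus D1, -0.13 to 0.010 in diestrus D1 and -0.23 to 0.088 in diestrus D2 rats, and between stages from -0.19 to 0.11 in saline-treated D1 and -0.019 to 0.53 in ketamine-treated D2 rats. Mapk9 between ketamine and saline ranged from -0.045 to 0.0096 in diestrus D1, -0.036 to 0.014 in proestrus D2 and -0.020 to 0.015 in diestrus D2 rats, and between stages from -0.013 to 0.068 in ketamine-treated D1 rats. Mapk10 ranged from -0.089 to 0.017 between treatments in proestrus D2 and from -0.046 to 0.034 between stages in ketamine-treated D1 rats. The ratio of Mapk10 to Mapk9 ranged from 0.21 to 0.27 between cell types in ketamine-treated diestrus rats (past the threshold without library 32), from -0.031 to 0.041 between treatments in proestrus D1 rats, and between stages from -0.17 to -0.075 in saline-treated D1 and from -0.057 to 0.026 in saline-treated D2 rats.

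Counts of genes called depended more on the model. Between D2 and D1 in saline-treated rats there were 440 instead of 718 in proestrus at a threshold of 0.05, in diestrus 1076 without surrogate variables, 1348 with blocks and 854 in the single model instead of 546, and over both stages 1848 in the single model instead of 3941. With ketamine there were 447 without surrogate variables and 394 with blocks instead of 748 in proestrus, and 611 and 671 instead of 1705 in diestrus. Between ketamine and saline, proestrus D1 rats had 1 call, with 0 without surrogate variables, without a filter, with blocks and in the single model and 16 by DESeq2. Diestrus D1 rats had 3, with 0 without surrogate variables, with blocks, in the single model and at a threshold of 0.05 and 10 by DESeq2. Proestrus D2 rats had 0, with 1 by DESeq2 and 1 without a filter. Between stages DESeq2 called 2 genes in saline-treated D1, 2 in ketamine-treated D1 and 4 in ketamine-treated D2 rats, the fit without a filter 3 in ketamine-treated D1 and 1 in saline-treated D2 rats, and the single model 1 in ketamine-treated D2 rats. DESeq2 called 2 genes for the interaction. With 1 library left out, D2 against D1 gave 286 to 1697 calls in saline proestrus, 273 to 925 in saline diestrus, 1237 to 4229 in saline over both stages and 480 to 1098 in ketamine proestrus. Ketamine against saline gave 0 to 3 in proestrus D1, 0 to 5 in diestrus D1 and 0 to 1 in proestrus D2 rats, the stages 0 to 14 in saline-treated D1 and 0 to 1 in ketamine-treated D1 and in ketamine-treated D2 rats, and the interaction 0 to 5.

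Of the pathway lists, the call of Atf2 in saline-treated rats over both stages was lost without surrogate variables, leaving 0. Of the 5 genes most like Gsk3b, 3 remained by Spearman's rho, and of those most like Mapk10, 3 remained without libraries 39 and 33. Depth limits Gsk3b most, in library 39 with 108 reads.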
